A study of Homo sapiens with 15 samples.

Results

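The 46 genes described here make ribosomes: subunits and factors of RNA polymerase I, the proteins of small nucleolar ribonucleoprotein particles (snoRNPs), abundant nucleolar proteins, and factors that build the small and the large ribosomal subunit. They were taken by symbol, for their known roles, from the 41412 rows of the deposited count matrix. All 46 had a row, and all 46 passed the filter on low counts that left 18380 genes for testing. RNA was measured in HepG2 cells, an established line from a human hepatocellular carcinoma, in 15 libraries. Each of 4 groups of 3 cultures received 1 µg of mRNA for enhanced green fluorescent protein (eGFP) through a lipid nanoparticle transfection reagent. In the non-cloaked group the mRNA was not cloaked. In the cloaked groups it had first been incubated with the reagent CR-3, at 0.1 M for 0.5 h and 25 °C (weak), at 0.5 M for 1 h and 30 °C (medium) or at 1 M for 2 h and 37 °C (strong). The fifth group of 3 was untransfected. Cells of every group were wild type by label and were lysed at 48 h. No group received particles without mRNA, so a difference from untransfected cells covers particle and mRNA together. The series asks how the transcriptome differs with cloaked and with non-cloaked mRNA.

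RNA polymerase I works in the nucleolus, where it transcribes the long precursor of the ribosomal RNAs. UBTF opens and marks the ribosomal DNA, and RRN3 joins the polymerase to its promoter factors. The precursor is then methylated under the guidance of box C/D snoRNAs and pseudouridylated under that of box H/ACA snoRNAs. A large assembly called the small-subunit processome folds and cuts the part that becomes the small subunit, while other helicases, GTPases and scaffold proteins build the large one. In liver tumour cells, as in other growing cells, this pathway follows growth signals, and the transcription factor MYC is known to drive many of its genes through the E-box, the sequence CACGTG. Ribosomal RNA itself was not measured, because the libraries were selected for poly(A) tails.

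Because MYC acts through this motif, the promoters of these genes were searched for it. RefSeq (GRCh38.p14) promoter windows, 250 bases before to 50 after the start, were matched by symbol for 37 of the 46 genes, and where the table lists several starts of a gene, any of them counted. CACGTG, which reads the same on both strands, was in a window of 15 of the 37 (40.5%), against 1472 of 12230 tested protein-coding genes (12.04%). Of the 16 matches, 13 began within 40 bases of the start. The share holding GGGCGG, the GC box, was 78.4% against 74.4%, and for CCAAT it was 40.5% against 42.8%, both strands searched. TATAAA was in 2.7% against 9.35%. None of these motifs contains another. The matches below belong to all 5 of the 15 genes whose mRNA was called lower in transfected cells (WDR43, UTP4, UTP14A, UTP20 and NOP2). They also belong to 3 of those whose mRNA was not called (FBL, NOP10 and GNL3), and the rest are not shown. Each is given in the direction of the gene with 9 bases on either side, and capitals mark the E-box.
WDR43, chr2:28894661-28894684, plus strand: acggacgaaCACGTGgctgcagcg
UTP4, chr16:69132624-69132647, plus strand: gcgcgcgcgCACGTGgggccgggg
UTP14A, chrX:129905914-129905937, plus strand: accttgggcCACGTGgaaaccagg
UTP20, chr12:101280086-101280109, plus strand: ttttccgtcCACGTGacccactca
NOP2, chr12:6568242-6568265, minus strand: tccggattgCACGTGgagggccgc
FBL, chr19:39846359-39846382, minus strand: gctcttttcCACGTGcgaaagccc
NOP10, chr15:34343133-34343156, minus strand: attgacgaaCACGTGacgcggtcg
GNL3, chr3:52686029-52686052, plus strand: ttcagttcaCACGTGgcgccagcg

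The 100 bases before the start of UTP20, which was called lower and has the motif 10 bases before its start, and of NPM1, which was not called and has none in any window, are shown as a contrasting pair from the same table, again with the E-box in capitals. The pair does not stand for the whole set. With an E-box 5 of 15 genes fell (median log2 fold change -0.268), and without one 6 of 22 fell and 2 rose (median -0.353). Of all tested genes 12.7% were called lower and 10.4% higher.
UTP20, chr12:101280005-101280104, plus strand: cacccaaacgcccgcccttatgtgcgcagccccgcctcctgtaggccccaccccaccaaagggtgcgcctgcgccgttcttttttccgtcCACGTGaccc
NPM1, chr5:171387749-171387848, plus strand: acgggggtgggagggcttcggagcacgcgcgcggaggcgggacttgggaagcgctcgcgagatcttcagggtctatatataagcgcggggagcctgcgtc

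Library totals ran from 57128519 to 78548789 counts, and 8 hepatocyte genes summed to between 13330 and 16350 CPM in every library, with ALB at 4494 CPM or more and TTR at 3.097 to 6.879 CPM. Of the 8, HNF4A (-0.66, adjusted p = 0.0054, edgeR) and APOB (-0.53, adjusted p = 0.015) were lower in transfected than in untransfected cells, and APOA1 (0.36, adjusted p = 0.046) and SERPINA1 (0.46, adjusted p = 0.017) higher. Among markers of other cells, the summed level was 878.6 to 1251 CPM in transfected and 1118 to 1543 CPM in untransfected libraries for 6 leukocyte genes, nearly all of it LYZ, with PTPRC at no more than 0.1095 CPM. For 6 fibroblast genes it was 15.47 to 21.39 against 17.88 to 22.76 CPM, and for 6 endothelial genes 1.615 to 2.802 against 2.451 to 3.123 CPM. In none of the 3 lists was a gene at 0 in every library, and 3, 2 and 3 genes of them stayed below 1 CPM throughout. PDGFRB of the fibroblast list (-1.42, adjusted p = 0.002, edgeR) and VWF of the endothelial list (-1.24, adjusted p = 0.011) were called lower in transfected cells. The part of these markers in the results below was not tested. In all genes together, the first principal component (21.1% of the variance) placed 11 transfected libraries from -7.805 to 44.13, and the untransfected ones from -70.55 to -68.58. At -51.63, weak-cloaked replicate 1 was apart from its own group. Results that rest on this library are given with and without it.

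With the 4 transfected groups as one, set against untransfected cells, 14 of the 46 genes fell and 2 rose at an adjusted p below 0.05. The genes that fell by the most on the log2 scale were NOP58 of the box C/D particle, the small-subunit factors DDX52, UTP4 and UTP20, the large-subunit factors RRP1 and RRS1, and POLR1A, the largest subunit of the polymerase. The background was such that 12.7% of all tested genes were called lower, 10.4% higher and 23.1% in either direction. The called share of the 46 was 34.8%. Their median log2 fold change was -0.334, against -0.0532 over all tested genes, and 37 of the 46 values were negative. In 31 genes the fitted value was below the untransfected one in each of the 4 groups, and in 6 it was above in each. The 4 groups share the same 3 untransfected libraries, so these signs are not independent of each other. The shares of all tested genes with such signs were not counted. These sign counts therefore cannot be read as particular to the 46. Together the 46 transcripts made up 0.431% to 0.528% of all counts in 11 transfected libraries and 0.620% in weak-cloaked replicate 1, against 0.602% to 0.656% in the untransfected libraries. These are shares of unscaled counts. The factors of the TMM scaling used in the tests were 1.126 to 1.15 in untransfected libraries. They were 1.108 in weak-cloaked replicate 1 and 0.9231 to 1.029 in the other 11. Divided by these factors, the shares of transfected and untransfected libraries lie closer together and overlap. In bulk RNA a lower level in every cell and fewer cells with the transcript cannot be told apart.

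These values come from quasi-likelihood tests in edgeR, adjusted by the Benjamini-Hochberg method over all 18380 genes and comparing the mean of the 4 transfected groups with the untransfected group on TMM-scaled counts (CPM, counts scaled to a common library size). Without weak-cloaked replicate 1 the count was 3 higher and 22 lower, with 31.5% of all genes called. Without untransfected replicate 1, 2 or 3 it was 8, 10 or 14 in either direction, with 13.1%, 11.4% or 14.8% of all genes called. Of the 16 called genes, 7 kept their call with each of the 15 libraries left out in turn and under each other alternative tried: POLR1A, UTP4, DDX52, RRS1, NOP58, POLR1C and UTP20. The share of all called genes that would keep their call was not counted, so this number has no background beside it. Scaling by total counts moved the median of all genes to -0.278, and the median of the 46 was then -0.557. With that scaling 27 of the 46 fell and none rose, where 23.7% of all genes were called lower and 5.14% higher. The changes below are relative to the bulk of tested genes.

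**Figure D1:**
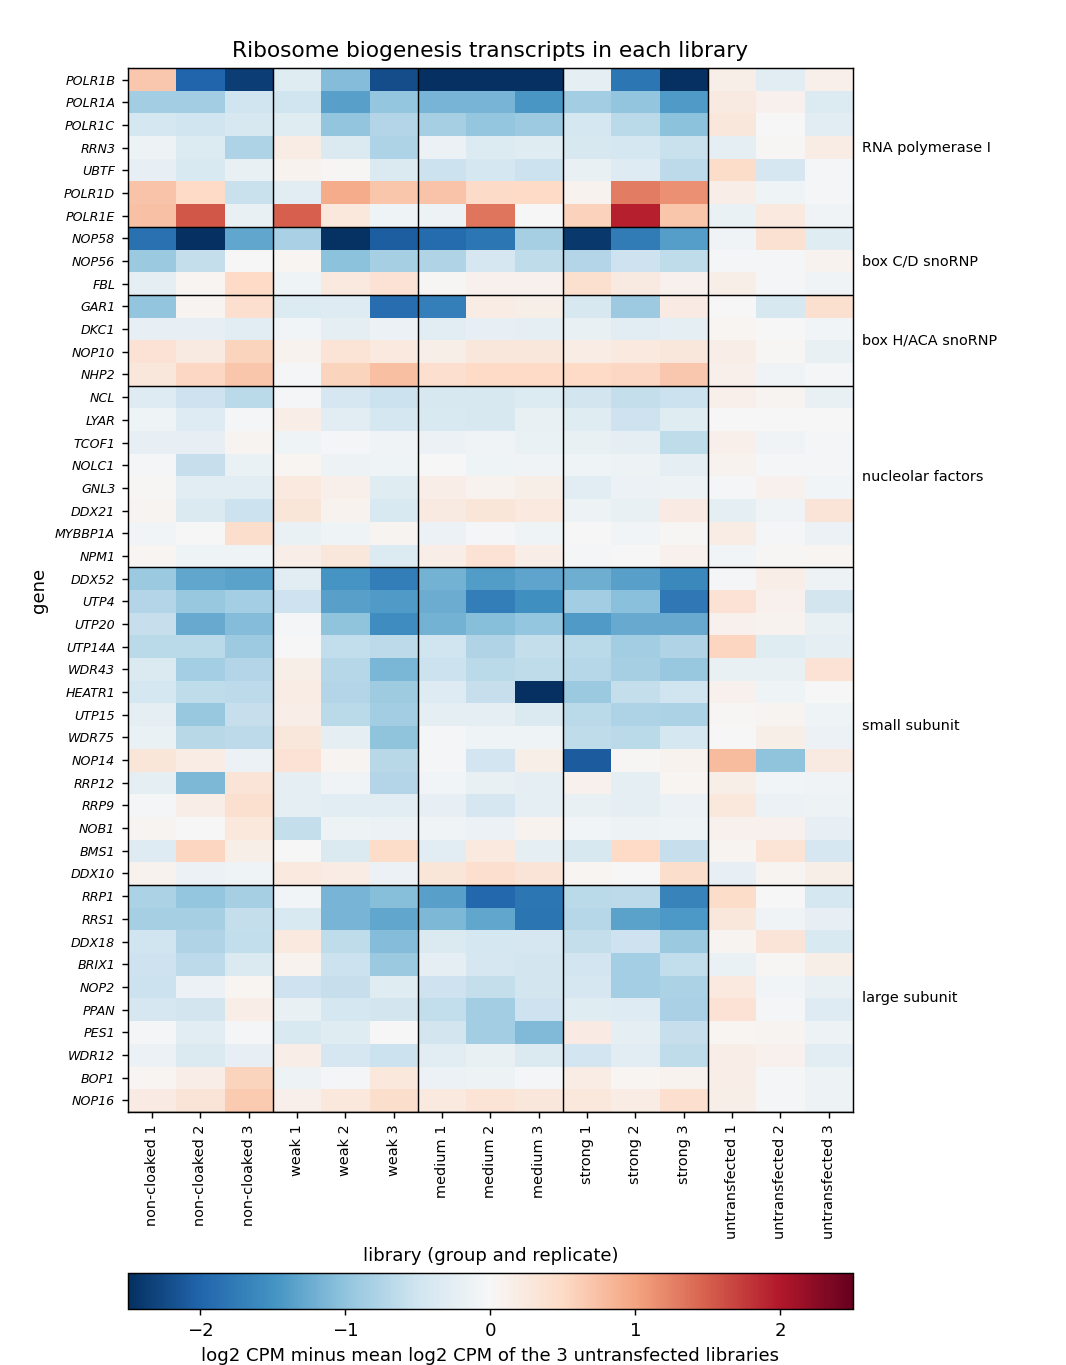
Each row is one of the 46 genes, grouped by role, and each column one of the 15 libraries. Colour gives log2 CPM minus the mean log2 CPM of the 3 untransfected libraries. Blue, the colour of lower levels, runs across 11 transfected libraries for POLR1A, NOP58, UTP4, DDX52, UTP20, RRP1 and RRS1. It is palest in weak-cloaked replicate 1, with 2 exceptions. Non-cloaked replicate 3 is as pale for POLR1A, and medium-cloaked replicate 3 is about as pale for NOP58.

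For the counts by role that follow, the shares to set beside them are 12.7% of all tested genes called lower and 10.4% higher. Of 7 genes for RNA polymerase I subunits and initiation factors, 2 fell and none rose (median -0.355). POLR1A encodes the largest subunit, which holds part of the active site (GRCh38 chromosome 2, 86020216 to 86106155, by the GENCODE annotation used for all gene positions here). It had 48.7, 48.98 and 63.1 CPM in non-cloaked, 62.8, 34.9 and 45.8 in weak-cloaked, 40.02, 39.7 and 32.6 in medium-cloaked and 48.8, 44.9 and 33.4 in strong-cloaked cells, against 104, 95.9 and 70.6 CPM in untransfected cells. Every transfected library was below every untransfected one, weak-cloaked replicate 1 included. The log2 fold change was -1.01 ± 0.16 (SE; adjusted p = 0.0018, edgeR). POLR1C, a subunit shared with RNA polymerase III (chromosome 6, 43509702 to 43562419), had 30.3, 29.2 and 30.9 CPM in non-cloaked, 33.4, 20.8 and 24.8 in weak-cloaked, 22.9, 21.01 and 21.9 in medium-cloaked and 30.4, 25.7 and 20.3 in strong-cloaked cells. It had 50.01, 40.8 and 33.9 CPM in untransfected cells, and again the groups did not overlap. It fell by 0.69 ± 0.15 on the log2 scale (adjusted p = 0.0062, edgeR). Its exons overlap those of XPO5, YIPF3 and LRRC73 on the other strand, and the strand setting of the counting is not given in the sources used here, so its level is uncertain. The same holds for the other genes here with an annotated exon on the other strand, among them UBTF, DDX52, UTP14A, HEATR1, NOB1, PES1, WDR12 and BRIX1.

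POLR1B, the second subunit of the catalytic core, did not pass the test in this comparison. It had 10.6, 1.66 and 1.28 CPM in non-cloaked, 5.39, 3.095 and 1.41 in weak-cloaked, 0.485, 0.5604 and 1.101 in medium-cloaked and 5.67, 1.88 and 0.558 in strong-cloaked cells, against 7.34, 5.45 and 7.28 CPM in untransfected cells. All 3 medium-cloaked libraries were far below the untransfected ones, whereas non-cloaked replicate 1 was above them. Its highest and lowest library differed 8.23-fold within the non-cloaked group and 10.0-fold within the strong-cloaked group, and its log2 fold change was -1.53 ± 0.61 (adjusted p = 0.090, edgeR). It passed without non-cloaked replicate 1 (-1.94, adjusted p = 0.015) and without strong-cloaked replicate 1 (-1.82, adjusted p = 0.038), by the same test. POLR1D, another subunit shared with RNA polymerase III, and POLR1E, an initiation subunit, had positive values of 0.58 ± 0.30 and 0.83 ± 0.47 that did not pass (adjusted p = 0.18 and 0.22). Replicates of POLR1E differed up to 3.34-fold within a group.

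The initiation factors UBTF and RRN3 did not pass the test. UBTF had 39.9, 35.5 and 40.4 CPM in non-cloaked, 48.97, 46.9 and 35.95 in weak-cloaked, 31.9, 34.03 and 31.8 in medium-cloaked and 40.5, 36.99 and 29.4 in strong-cloaked cells, against 62.96, 34.2 and 45.4 CPM in untransfected cells. The highest value of all was untransfected replicate 1, and untransfected replicate 2 lay among the transfected libraries. The log2 fold change was -0.34 ± 0.15 (adjusted p = 0.12, edgeR), and it passed when untransfected replicate 2 was left out (-0.53, adjusted p = 0.038). RRN3 had 49.8, 42.8 and 31.9 CPM in non-cloaked, 61.6, 42.1 and 32.1 in weak-cloaked, 49.2, 42.9 and 44.3 in medium-cloaked and 41.01, 40.1 and 37.02 in strong-cloaked cells, against 46.8, 55.4 and 62.1 CPM in untransfected cells. The groups overlapped, and weak-cloaked replicate 1 was the second highest of all 15 libraries. The change was -0.36 ± 0.16 (adjusted p = 0.13, edgeR), or -0.43 without that library (adjusted p = 0.025). RRN3 has copies, RRN3P1, RRN3P2 and RRN3P3, each at no more than 2.249 CPM in any library, whose reads could be shared with it.

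**Figure D2:**
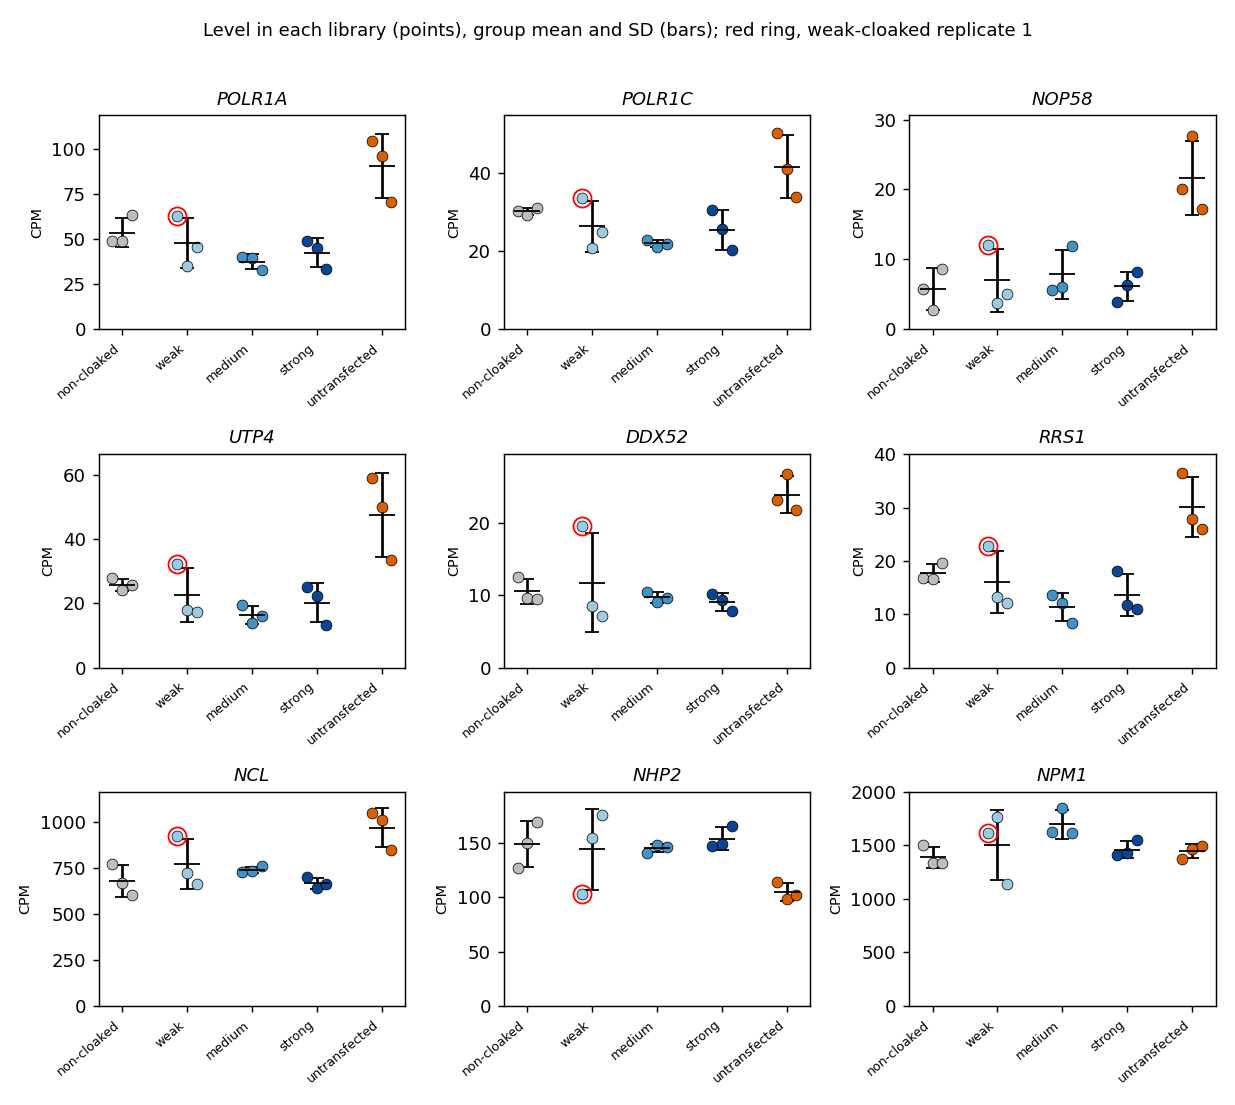
Points are single libraries, in CPM on axes that start at 0, for 9 genes in the 5 groups, with the mean and SD of each group of 3 as bars. In POLR1A, POLR1C, NOP58, UTP4, DDX52 and RRS1 no transfected library reaches an untransfected one, in NCL and NHP2 weak-cloaked replicate 1 (ringed) lies within the untransfected range, and NPM1 shows no separation.

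Of 3 box C/D proteins 1 fell (median -0.551), by the most of the called genes. NOP58 (chromosome 2, 202265716 to 202303666), which forms the scaffold of the particle with NOP56, had 5.79, 2.74 and 8.67 CPM in non-cloaked, 12.1, 3.82 and 5.08 in weak-cloaked, 5.59, 6.08 and 11.9 in medium-cloaked and 3.97, 6.31 and 8.13 in strong-cloaked cells. It had 20.1, 27.6 and 17.3 CPM in untransfected cells, so the groups did not overlap. It fell by 1.71 ± 0.35 on the log2 scale (adjusted p = 0.0054, edgeR). Its partner NOP56 had 56.3, 70.5 and 107 CPM in non-cloaked, 109.8, 52.1 and 59.99 in weak-cloaked, 63.4, 79.8 and 68.8 in medium-cloaked and 63.9, 74.3 and 68.4 in strong-cloaked cells, against 103, 104 and 113 CPM in untransfected cells. Non-cloaked replicate 3 and weak-cloaked replicate 1 were within the untransfected range and the other 10 transfected libraries below it. The change of -0.55 ± 0.20 did not pass (adjusted p = 0.058, edgeR). FBL, or fibrillarin, the enzyme that adds the methyl groups (chromosome 19, 39834458 to 39846414), had 418, 517 and 705 CPM in non-cloaked, 464, 589 and 636 in weak-cloaked, 508, 538 and 532 in medium-cloaked and 659, 582 and 535 in strong-cloaked cells, against 548, 482 and 465 CPM in untransfected cells. The groups overlapped. The log2 fold change was 0.16 ± 0.13 (adjusted p = 0.43, edgeR), and its sign was negative with total-count scaling (-0.07) and with offsets for transcript length and GC content (-0.01).

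Of 4 box H/ACA proteins 1 rose and 1 fell with TMM scaling (median 0.0278), and with total-count scaling 1 fell and none rose. NHP2, a core protein of the particle (chromosome 5, 178149460 to 178153967), had 128, 150.3 and 169.8 CPM in non-cloaked, 103, 155 and 176 in weak-cloaked, 141, 149 and 147 in medium-cloaked and 147, 149 and 166 in strong-cloaked cells, against 114, 98.3 and 102 CPM in untransfected cells. In 11 transfected libraries it was above every untransfected one, and weak-cloaked replicate 1 was within the untransfected range. The rise was 0.50 ± 0.14 (adjusted p = 0.018, edgeR). It lost its call with untransfected replicate 2 or 3 left out (adjusted p = 0.089 and 0.069), with total-count scaling (0.27, adjusted p = 0.056) and with the length and GC offsets (0.23, adjusted p = 0.086). Its exons overlap those of RMND5B on the other strand. DKC1, or dyskerin, the pseudouridine synthase itself, had 115, 115 and 112 CPM in non-cloaked, 128, 112 and 120.2 in weak-cloaked, 112, 115 and 114 in medium-cloaked and 117, 111 and 112 in strong-cloaked cells, against 139, 135 and 127 CPM in untransfected cells. Weak-cloaked replicate 1 was again the one transfected library within the untransfected range. The fall was small, -0.21 ± 0.07 (adjusted p = 0.033, edgeR), and its call was lost in 9 of the 15 cases of 1 library left out. NOP10 and GAR1, the other 2 core proteins, had values of 0.27 ± 0.10 (adjusted p = 0.061) and -0.36 ± 0.41 (adjusted p = 0.57).

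Of 8 nucleolar scaffold and chaperone genes 1 fell and none rose (12.5% called, median -0.087). That is near the 12.7% of all tested genes called lower, whose median was -0.0532. NCL, or nucleolin, an RNA-binding protein of the nucleolus (chromosome 2, 231453531 to 231483641), had 772, 670.4 and 601 CPM in non-cloaked, 927, 724 and 665 in weak-cloaked, 729, 734 and 760.1 in medium-cloaked and 701, 640.2 and 662 in strong-cloaked cells, against 1048, 1010.2 and 848 CPM in untransfected cells. Apart from weak-cloaked replicate 1, every transfected library was below every untransfected one. It fell by 0.44 ± 0.10 on the log2 scale (adjusted p = 0.0088, edgeR), and missed the threshold without untransfected replicate 1 (adjusted p = 0.058) or 2 (0.052). NPM1, or nucleophosmin, the main chaperone of the granular part of the nucleolus and the most abundant of the 46 transcripts per length, had 1504, 1333 and 1333 CPM in non-cloaked, 1615, 1767 and 1135 in weak-cloaked, 1624, 1851 and 1614 in medium-cloaked and 1410.4, 1427 and 1548 in strong-cloaked cells, against 1374, 1467 and 1498 CPM in untransfected cells. The groups overlapped, and the log2 fold change was 0.06 ± 0.11 (adjusted p = 0.73), with the sign negative under total-count scaling (-0.16). The 49 annotated pseudogenes of NPM1 in the matrix summed to no more than 14.81 CPM in any library. TCOF1, the scaffold treacle, NOLC1, GNL3 (nucleostemin), MYBBP1A, LYAR and the helicase DDX21 had values between -0.25 and -0.02, none of which passed. TCOF1 had 108, 108 and 130.4 CPM in non-cloaked, 115, 121 and 118 in weak-cloaked, 113, 118 and 111 in medium-cloaked and 109.6, 105 and 79.9 in strong-cloaked cells, against 136, 118 and 122 CPM in untransfected cells. Strong-cloaked replicate 3 was the lowest of these libraries.

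Among 14 small-subunit factors, 5 fell and none rose, with a median of -0.423. DDX52, an RNA helicase related to yeast Rok1 (chromosome 17, 37609739 to 37643464), had 12.5, 9.65 and 9.39 CPM in non-cloaked, 19.5, 8.48 and 7.11 in weak-cloaked, 10.4, 9.01 and 9.54 in medium-cloaked and 10.2, 9.298 and 7.77 in strong-cloaked cells, against 23.1, 26.7 and 21.7 CPM in untransfected cells. The groups did not overlap, and weak-cloaked replicate 1 was the nearest to the untransfected range. It fell by 1.23 ± 0.22 on the log2 scale (adjusted p = 0.0029, edgeR). UTP4, a WD-repeat protein of the processome known as cirhin and mutated in a childhood cirrhosis of the liver (chromosome 16, 69131291 to 69231130), had 27.8, 24.1 and 25.7 CPM in non-cloaked, 32.3, 18.1 and 17.3 in weak-cloaked, 19.5, 13.95 and 16.002 in medium-cloaked and 25.2, 22.4 and 13.3 in strong-cloaked cells, against 59.2, 50.03 and 33.6 CPM in untransfected cells. No transfected library reached an untransfected one. It fell by 1.18 ± 0.21 (adjusted p = 0.0028, edgeR), and CHTF8 overlaps it on the other strand. UTP20, a very long helical-repeat protein of the same assembly (chromosome 12, 101280109 to 101386616), had 11.9, 7.43 and 8.41 CPM in non-cloaked, 17.5, 8.91 and 6.08 in weak-cloaked, 7.86, 8.501 and 9.06 in medium-cloaked and 6.65, 7.43 and 7.38 in strong-cloaked cells, against 19.2, 18.9 and 15.6 CPM in untransfected cells. Weak-cloaked replicate 1 was within the untransfected range, and in the other 11 transfected libraries it was below them. It fell by 1.02 ± 0.22 (adjusted p = 0.0070, edgeR).

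UTP14A and WDR43, 2 further processome proteins, fell by 0.68 ± 0.17 and 0.66 ± 0.20 (adjusted p = 0.013 and 0.029, edgeR). UTP14A lost its call without untransfected replicate 1 (-0.37, adjusted p = 0.15), and WDR43 without any 1 of the untransfected replicates (adjusted p = 0.051, 0.054 and 0.19). HEATR1, another long processome protein, had a lone low library: medium-cloaked replicate 3 had 241 counts, against 1962 and 2403 in the other medium-cloaked libraries, and its change of -0.65 ± 0.41 did not pass (adjusted p = 0.28). NOP14 was likewise low in strong-cloaked replicate 1, at 930 counts beside 3364 and 3582. UTP15 (-0.50), WDR75 (-0.35), RRP12 (-0.19), RRP9 (-0.15), NOB1 (-0.08), BMS1 (-0.01) and DDX10 (0.14) did not pass, though RRP9 and DDX10 did with the length and GC offsets described below. Replicates that differ 4-fold or more were found in 3 of the 46 genes (6.52%), POLR1B, HEATR1 and NOP14, and in 905 of 10870 tested genes of at least the same level (8.33%).

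Of 10 large-subunit factors, 4 fell and 1 rose, with a median of -0.463. RRP1 (chromosome 21, 43789513 to 43805293), a nucleolar protein needed for the precursor of the large subunit in yeast, had 15.8, 13.9 and 15.4 CPM in non-cloaked, 26.1, 12.3 and 13.02 in weak-cloaked, 10.7, 6.96 and 7.81 in medium-cloaked and 17.2, 17.3 and 8.61 in strong-cloaked cells, against 37.5, 27.1 and 20.1 CPM in untransfected cells. Medium-cloaked replicates 2 and 3 were the lowest of all, and weak-cloaked replicate 1 lay within the untransfected range. It fell by 1.08 ± 0.24 (adjusted p = 0.0081, edgeR), or by 0.83 without untransfected replicate 1, where it missed the threshold (adjusted p = 0.066). RRS1, whose yeast counterpart helps to bring RPL11 and its RNA partner into the growing subunit (chromosome 8, 66429028 to 66430733), had 16.8, 16.7 and 19.6 CPM in non-cloaked, 22.8, 13.3 and 12.1 in weak-cloaked, 13.6, 12.1 and 8.35 in medium-cloaked and 18.2, 11.8 and 11.03 in strong-cloaked cells, against 36.4, 27.8 and 25.96 CPM in untransfected cells. The groups did not overlap. It fell by 1.05 ± 0.20 (adjusted p = 0.0038, edgeR). RRS1 and NOP2 each share exon sequence with an unnamed locus on the same strand, so their counts are uncertain too. NOP2, an RNA methyltransferase, had 31.3, 41.1 and 46.9 CPM in non-cloaked, 31.6, 30.5 and 36.6 in weak-cloaked, 31.9, 30.1 and 32.99 in medium-cloaked and 33.99, 25.1 and 26.1 in strong-cloaked cells, against 53.8, 43.6 and 40.03 CPM in untransfected cells. Non-cloaked replicates 2 and 3 were within the untransfected range and all cloaked libraries below it. It fell by 0.48 ± 0.13 (adjusted p = 0.020, edgeR), and missed the threshold without untransfected replicate 1 (adjusted p = 0.13) or 2 (0.051).

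BRIX1, a nucleolar assembly factor, fell by 0.48 ± 0.16 (adjusted p = 0.047, edgeR), and NOP16 rose by 0.32 ± 0.11 (adjusted p = 0.049). Both calls were lost with most libraries left out, in 12 and 13 of 15 cases. NOP16 had 57.6, 62.4 and 78.7 CPM in non-cloaked, 54.7, 60.2 and 67.3 in weak-cloaked, 59.2, 63.5 and 60.9 in medium-cloaked and 60.2, 56.6 and 66.9 in strong-cloaked cells, against 55.6, 48.7 and 45.9 CPM in untransfected cells. In 11 transfected libraries it was above the untransfected range, the exception being weak-cloaked replicate 1, and ARL10 and HIGD2A overlap its exons on the other strand. PES1 and BOP1 encode 2 of the 3 partners of the PeBoW complex of large-subunit processing, and WDR12 the other one. PES1 had 109.5, 94.2 and 109 CPM in non-cloaked, 87.1, 91.9 and 113 in weak-cloaked, 81.8, 61.6 and 52.8 in medium-cloaked and 130.2, 96.2 and 75.7 in strong-cloaked cells, against 117, 118 and 104 CPM in untransfected cells. The 3 medium-cloaked libraries and strong-cloaked replicate 3 were the lowest, and the change over all groups was -0.32 ± 0.15 (adjusted p = 0.13, edgeR). WDR12 was at -0.31 ± 0.13 (adjusted p = 0.11). BOP1 had 96.6, 105 and 138 CPM in non-cloaked, 85.5, 90.6 and 112 in weak-cloaked, 85.1, 85.4 and 90.5 in medium-cloaked and 106, 96.6 and 99.2 in strong-cloaked cells, against 106, 90.1 and 86.4 CPM in untransfected cells. The groups overlapped. Its log2 fold change was 0.07 ± 0.11 (adjusted p = 0.69), and its sign was negative with total-count scaling (-0.16) and with the length and GC offsets (-0.12). DDX18 (-0.55) and PPAN (-0.45) did not pass (adjusted p = 0.069 and 0.065). PPAN shares exons with the readthrough locus PPAN-P2RY11, at 0.274 to 12.37 CPM.

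**Figure D3:**
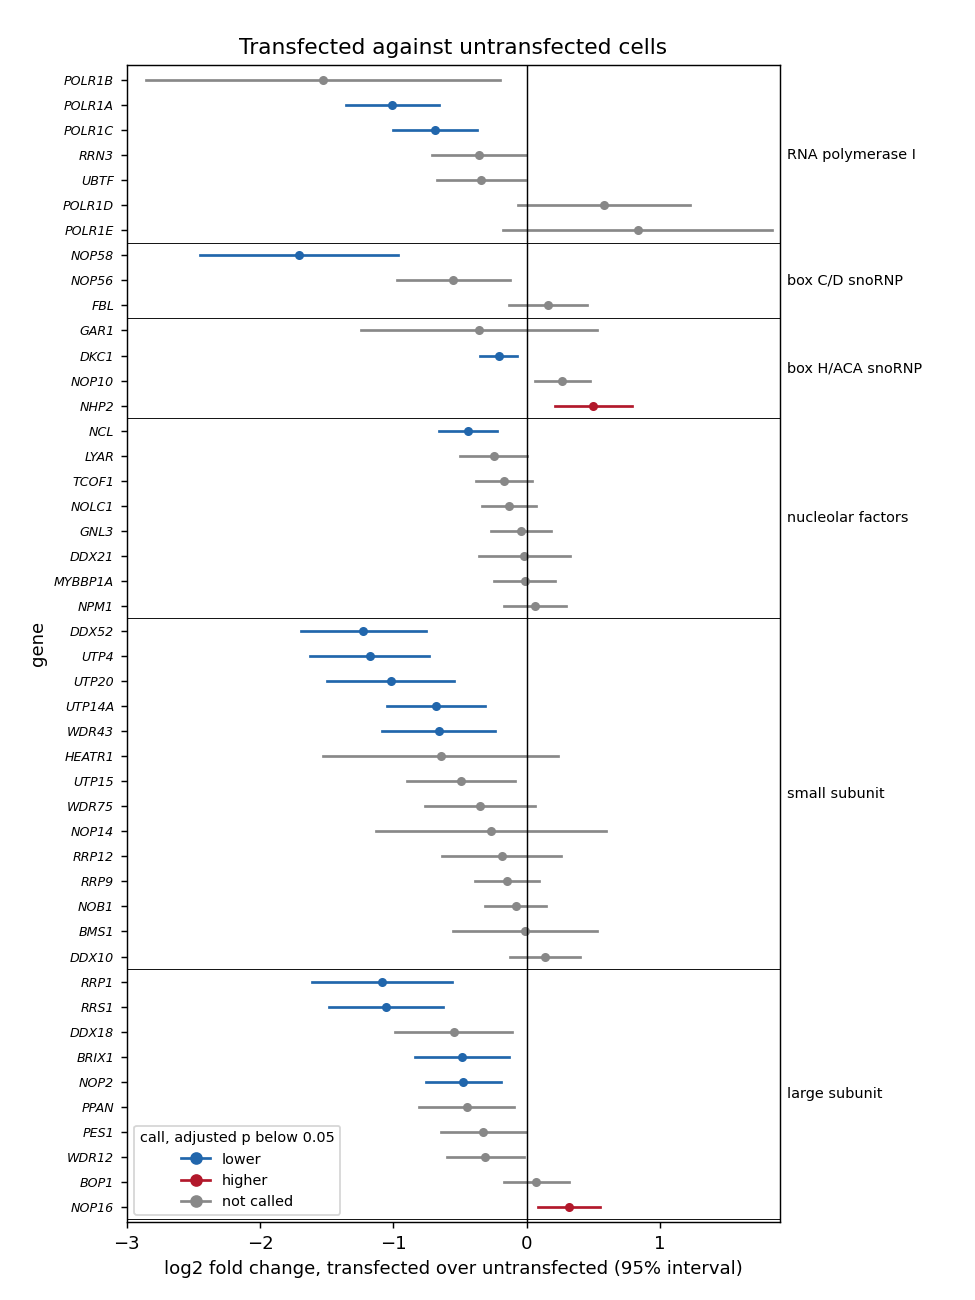
Points are log2 fold changes of the mean of the 4 transfected groups over untransfected cells for the 46 genes, with 95% intervals from edgeR's quasi-likelihood fit, in order of role. Blue points were called lower (14), red ones higher (2) and grey ones not called. The intervals of POLR1B, POLR1E, HEATR1, NOP14 and GAR1 are the widest.

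The single groups gave fewer calls than the pooled comparison, in the order of how many genes were called in all. With non-cloaked mRNA 3 of the 46 fell and none rose, where 2.66% of all genes were called lower, 3.84% higher and 6.50% in either direction: DDX52 (-1.18 ± 0.30, adjusted p = 0.038, edgeR), NOP58 (-1.92 ± 0.50, adjusted p = 0.041) and NCL (-0.51 ± 0.13, adjusted p = 0.040). With weak-cloaked mRNA 1 fell, POLR1A (-0.92 ± 0.22, adjusted p = 0.040), where 1.19% of all genes were called lower, 2.11% higher and 3.29% in either direction. Without weak-cloaked replicate 1 this comparison called 16 of the 46 lower and 1 higher, with 21.3% of all genes called. With medium-cloaked mRNA 9 fell and none rose, against 7.49% of all genes called lower, 6.25% higher and 13.7% in either direction. They were POLR1A (-1.27 ± 0.22, adjusted p = 0.0054), POLR1B (-3.22 ± 0.93, adjusted p = 0.039), POLR1C, UTP4 (-1.53 ± 0.29, adjusted p = 0.0073), UTP20, DDX52, RRP1 (-1.73 ± 0.34, adjusted p = 0.0085), RRS1 and PES1. With strong-cloaked mRNA 11 fell and 1 rose, against 7.11% called lower, 7.99% higher and 15.1% in either direction. NHP2 rose (0.56 ± 0.17, adjusted p = 0.039), and POLR1A, POLR1C, NOP58, NCL, UTP4, UTP14A, UTP20, WDR43, DDX52, NOP2 and RRS1 fell. The medians of the 46 were -0.241, -0.274, -0.282 and -0.444 in the non-, weak-, medium- and strong-cloaked groups, against -0.041, -0.0347, -0.04 and -0.0464 over all tested genes.

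The counts of single groups depended on the method and on single libraries. With non-cloaked mRNA DESeq2 called 12 of the 46 (15.6% of all genes), total-count scaling gave 6 (6.01%) and the length and GC offsets gave 0 (4.57%). With weak-cloaked mRNA DESeq2 called 6 (10.4%), with medium-cloaked 15 (20.4%) and with strong-cloaked 16 (22.4%). Leaving out 1 library at a time gave 0 to 2 calls with non-cloaked, 0 to 17 with weak-cloaked, 5 to 11 with medium-cloaked and 1 to 10 with strong-cloaked mRNA. The 0 with non-cloaked mRNA came without untransfected replicate 1 or 2 or non-cloaked replicate 2 or 3, and the 1 with strong-cloaked mRNA came without strong-cloaked replicate 3. The share of all genes called also moved, as given above for weak-cloaked mRNA without its replicate 1. It is not given here for the other fits, so these ranges cannot be read as particular to the 46. Replicates were biological by label.

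Weak-cloaked replicate 1 stood apart in these genes as well. Over the 46, its median log2 difference from the mean of the untransfected libraries was -0.03, against -0.20 to -0.55 in the other 11 transfected libraries and 0.11, -0.01 and -0.11 in the untransfected ones. In 13 of the 14 genes called lower it was above both other weak-cloaked libraries (92.9%), and in 12 it was the highest of the 12 transfected libraries (85.7%). Over all 2336 genes called lower, these shares were 85.7% and 63.5%. Transfected and untransfected libraries did not overlap in 6 of the 46 genes, all lower in transfected cells (13.04%, against 5.74% of all tested genes), and in none that were higher (against 5.12%). Without weak-cloaked replicate 1 the numbers were 16 lower (34.8%, against 11.8%) and 2 higher (4.35%, against 10.0%).

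Whether cloaking itself went with a difference was asked by setting each cloaked group against the non-cloaked one. None of the 46 genes was called in weak-cloaked (0.00544% of all genes, a single one), medium-cloaked (0%) or strong-cloaked cells (0%), nor when edgeR tested all 4 transfected groups at once for any difference (an F test, 0.00544%). DESeq2 also called none of the 46 in these 4 tests. At an unadjusted p below 0.05, edgeR had 2, 12, 2 and 2 of the 46 in these 4 tests, where 3.92%, 9.5%, 3.61% and 4.1% of all genes were below it. The median 95% interval of a single gene reached 0.458 on the log2 scale to either side, before any adjustment for the number of genes, and larger differences also went uncalled.

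RRP9, a protein of the U3 snoRNP of the processome, had the smallest p of the 46 in the F test (adjusted p = 0.99, edgeR) and one of the 2 smallest in each of the 3 cloaked comparisons. It had 26.04, 24.9 and 25.4 CPM in weak-cloaked, 26.2, 22.9 and 25.9 in medium-cloaked and 26.6, 25.6 and 27.5 in strong-cloaked cells, against 29.8, 34.2 and 40.4 in non-cloaked cells. No cloaked library reached a non-cloaked one. The untransfected libraries, at 36.8, 27.4 and 27.998 CPM, overlapped both sides. The log2 fold changes over non-cloaked cells were -0.45 ± 0.14, -0.48 ± 0.14 and -0.39 ± 0.14 (adjusted p = 0.97, 0.46 and 1). PES1, next in the F test (adjusted p = 0.99), was at -0.67 ± 0.19 in medium-cloaked over non-cloaked cells (adjusted p = 0.46), where its 3 medium-cloaked libraries were below the 3 non-cloaked ones. NOB1, an endonuclease that makes the last cut of the small-subunit RNA, had 73.9, 101 and 101 CPM in weak-cloaked, 105, 100. and 119 in medium-cloaked and 107, 102 and 103 in strong-cloaked cells, against 117, 112 and 133 in non-cloaked cells. Its difference in weak-cloaked cells was -0.39 ± 0.14 (adjusted p = 0.97), with weak-cloaked replicate 1 the lowest.

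In medium-cloaked over non-cloaked cells, POLR1B was at -2.66 ± 0.92 (adjusted p = 0.49, edgeR), POLR1A at -0.52 ± 0.22 (adjusted p = 0.50) and POLR1C at -0.46 ± 0.19 (adjusted p = 0.50), while DDX21 (0.51 ± 0.20) and DDX10 (0.40 ± 0.15) had positive values (adjusted p = 0.49 each). NOP2 had the smallest p in strong-cloaked over non-cloaked cells (-0.49 ± 0.17, adjusted p = 1), followed by RRP9 and TCOF1 (-0.23 ± 0.12, adjusted p = 1). BOP1 had the third smallest p in weak-cloaked over non-cloaked cells (-0.24 ± 0.14, adjusted p = 0.97), after RRP9 and NOB1, and was at -0.38 ± 0.14 in medium-cloaked cells (adjusted p = 0.49). The medians of the 46 were 0.0212, -0.124 and -0.143 in weak-, medium- and strong-cloaked over non-cloaked cells, against 0.0153, -0.0196 and 0.00596 over all tested genes.

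**Figure D4:**
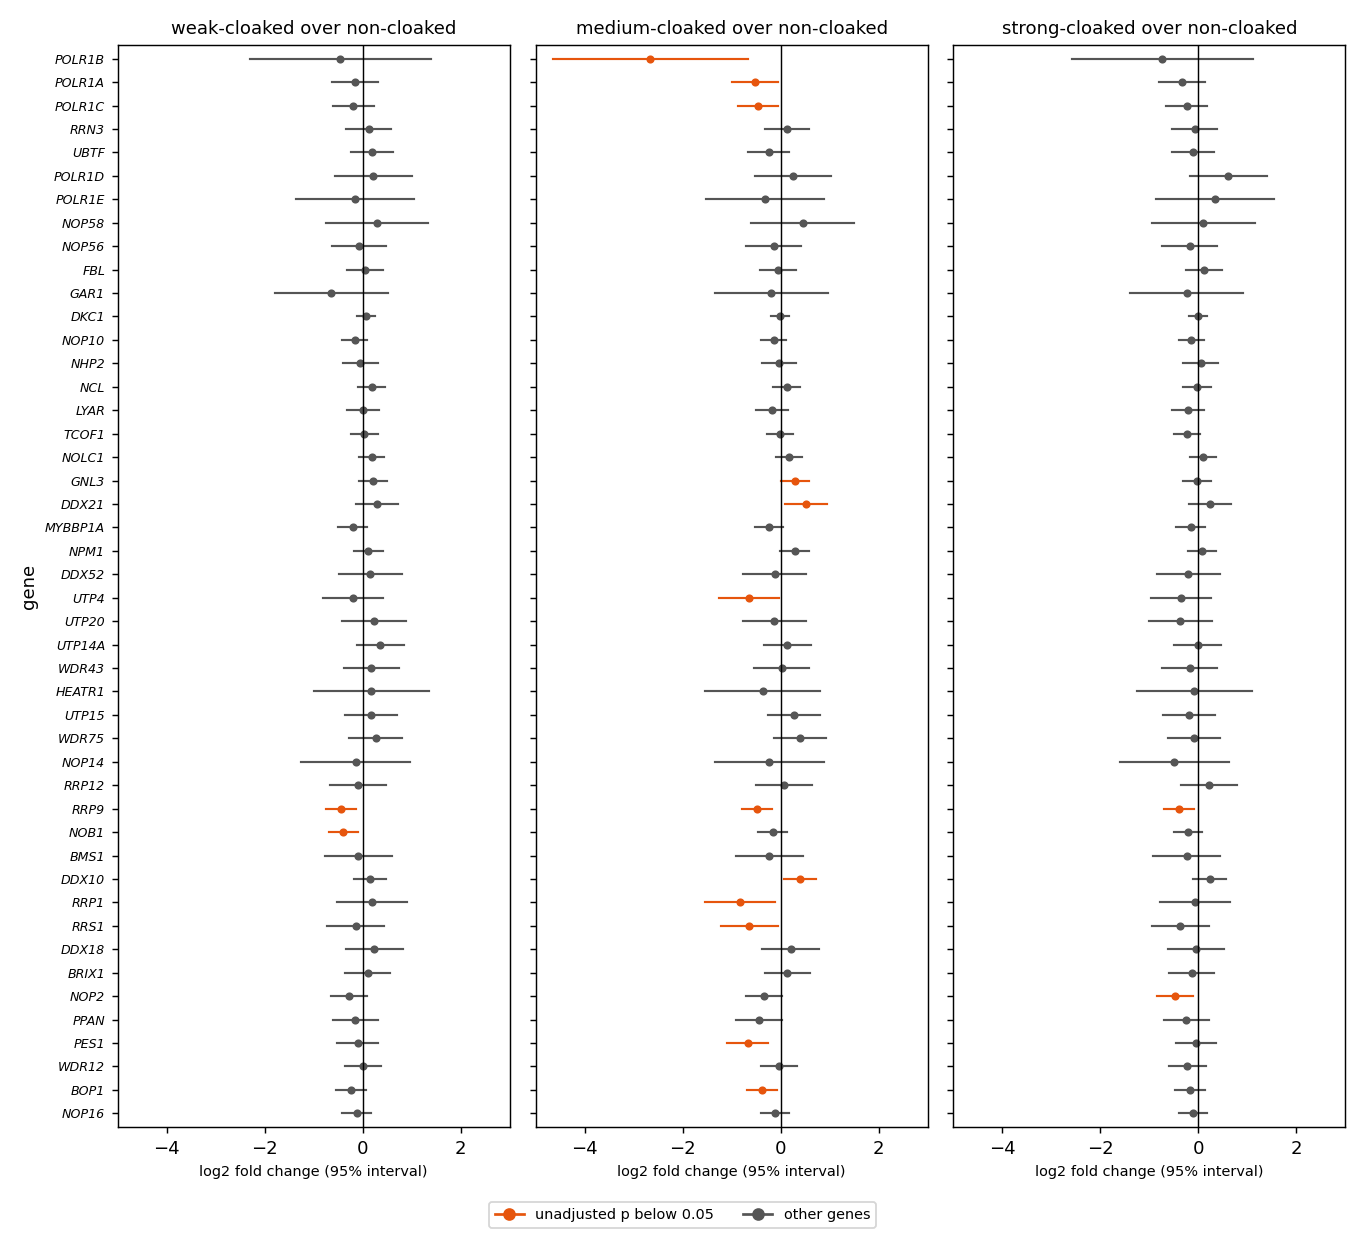
Points are log2 fold changes of weak-, medium- and strong-cloaked over non-cloaked cells for the 46 genes, with 95% intervals. Orange marks an unadjusted p below 0.05 (2, 12 and 2 genes), and none of them passed adjustment over all genes.

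Features that the choice of genes did not use were set beside the changes. Of the 46 genes 8 (17.4%) hold annotated snoRNA genes within their span on the same strand, against 243 of 15399 tested protein-coding genes (1.58%): POLR1C, NOP56, NOP58, DKC1, NCL, GNL3, WDR43 and PPAN. Of these 8, 5 fell and none rose, with a median of -0.501. Of the other 38, 9 fell and 2 rose, with a median of -0.289. Over all tested genes 12.7% were called lower and 10.4% higher, and the calls among the 243 genes were not counted. NOP56 holds SNORD110, SNORD57, SNORD86, SNORD56 and SNORA51, and NCL holds SNORD20, SNORD82 and SNORA75, which are cut from introns and were not measured here. Of the 15 genes with an E-box in the window, 5 fell and none rose (median -0.268). Of the 22 without one, 6 fell and 2 rose (median -0.353).

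Transcript length and base composition were also set beside the changes. Across the 46 genes, which are not independent replicates, Spearman's rho of the log2 fold change was -0.29 with the longest annotated transcript and 0.25 with its GC content. Offsets for both were fitted to these same counts, and take out each library's trend with length and GC content over all genes. A rho nearer 0 was thus largely fixed in advance. With the offsets, rho was -0.07 and -0.11. They gave 15 genes called lower and 2 higher, with 11.9% and 11.2% of all genes. Of these 17, 12 were also called without offsets. NHP2, NOP16, DKC1 and BRIX1 lost their calls, so that neither gene called higher before was still called. DDX21 (0.26 ± 0.09, adjusted p = 0.041, edgeR) and DDX10 (0.44 ± 0.10, adjusted p = 0.0066) were called higher instead, and RRP9 (-0.37 ± 0.10, adjusted p = 0.017), PES1 (-0.42 ± 0.14, adjusted p = 0.044) and PPAN (-0.67 ± 0.16, adjusted p = 0.011) lower. The 15 genes with the shortest transcripts (554 to 2303 nt) had a median of -0.04, with 2 lower and 2 higher. The 16 of middle length (2380 to 4476 nt) had -0.46 with 9 lower and none higher, and the 15 longest (4592 to 12749 nt) had -0.34 with 3 lower and none higher. With the offsets these medians were -0.12, -0.38 and -0.20, with 4, 8 and 3 lower and 0, 0 and 2 higher. The part of length and base composition in the single results was not tested.

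Other genes of the pathway were counted in lists that do not contain the 46. With TMM scaling, the shares to set beside these counts are 12.7% of all tested genes called lower and 10.4% higher. Of 40 further small-subunit factors 15 fell and none rose (median -0.34), led by NOL11 (-1.18 ± 0.30, adjusted p = 0.014, edgeR), UTP3 (-1.12 ± 0.25, adjusted p = 0.0077), UTP25 (-1.09 ± 0.20, adjusted p = 0.0036) and LTV1 (-0.94 ± 0.20, adjusted p = 0.0066). Of 40 further large-subunit factors 12 fell and 2 rose (median -0.223), with SDAD1 at -1.06 ± 0.28, CEBPZ at -0.82 ± 0.26, DDX31 at -0.79 ± 0.17 and the ATPase gene NVL at -0.76 ± 0.13. Of 10 proteins that assemble snoRNPs 5 fell and none rose (median -0.346), led by ZNHIT6 (-1.30 ± 0.24, adjusted p = 0.0032) and RPAP3 (-1.01 ± 0.23, adjusted p = 0.0088), parts of the machinery that builds box C/D particles, with SHQ1 (-0.73 ± 0.19), the dyskerin chaperone, and NUFIP1 (-0.68 ± 0.16). Of 10 proteins of RNase MRP 3 fell and none rose (median -0.194), and of 14 exosome proteins 1 fell and 1 rose (median -0.295). With total-count scaling, under which 23.7% of all genes were called lower, the numbers that fell in these 5 lists were 26, 22, 5, 5 and 7, and none rose. Without weak-cloaked replicate 1, 22 of the small-subunit and 14 of the large-subunit factors fell, and 1 and 5 rose, with 17.8% of all genes called lower and 13.8% higher.

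Of 16 further RNA polymerase I genes, 6 rose and 4 fell with TMM scaling (median 0.156), and 1 rose and 4 fell with total-count scaling (median -0.0708). TAF1B, part of the promoter-selectivity factor, fell by 0.82 ± 0.20 (adjusted p = 0.011, edgeR), the subunit gene POLR1G by 0.77 ± 0.17 (adjusted p = 0.0075) and the chromatin remodeller gene SMARCA5 by 0.69 ± 0.22 (adjusted p = 0.035). TBP fell by 0.53 ± 0.18 (adjusted p = 0.043). The genes called higher with TMM scaling were TAF1D (0.62 ± 0.19, adjusted p = 0.035), the small subunit POLR1H, and POLR2E, POLR2F, POLR2K and POLR2L, which encode subunits shared with the other nuclear RNA polymerases. POLR2E alone kept that call with total-count scaling. Of 16 RNA polymerase III genes 5 fell and 2 rose (median -0.11), with POLR3C at -1.04 ± 0.28, POLR3F at -1.01 ± 0.19 and BRF1 at -0.92 ± 0.23. MYC itself had a log2 fold change of -0.31 ± 0.19 (adjusted p = 0.27). It was at 0.13 ± 0.25 in non-cloaked, -0.41 ± 0.25 in weak-cloaked, -0.46 ± 0.25 in medium-cloaked and -0.49 ± 0.25 in strong-cloaked over untransfected cells, none of them called. Of 12 genes of the MYC network 2 rose and 1 fell (median -0.127), and with total-count scaling 2 rose and 3 fell (median -0.353), MYCN and MYCL being called too. The MYC antagonists MXD1 (1.19 ± 0.33, adjusted p = 0.021) and MXD3 (0.96 ± 0.22, adjusted p = 0.0091) rose, and MAX, the shared partner, fell (-0.40 ± 0.14, adjusted p = 0.049), a call lost with DESeq2's size factors in the same edgeR test.

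**Figure D5:**
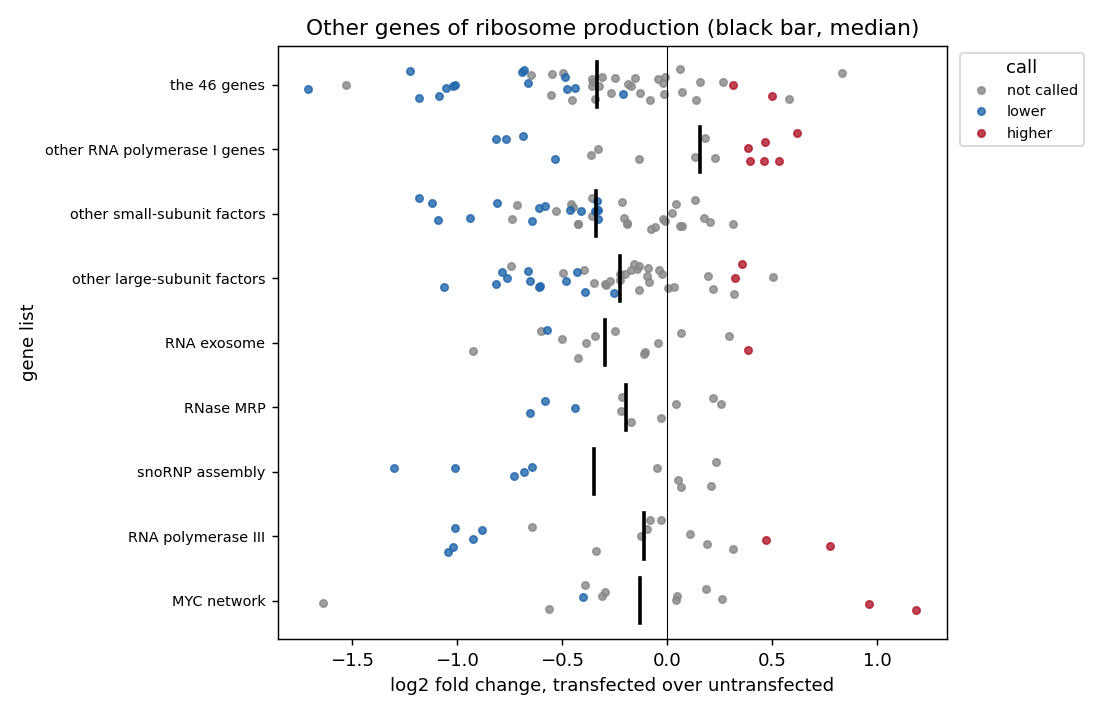
Each point is a gene, placed by its log2 fold change in transfected over untransfected cells, for the 46 genes and 8 lists of related genes. Blue and red points were called lower and higher at an adjusted p below 0.05, grey ones were not called, and black bars are medians. Among the 8 lists the medians run from -0.346 for snoRNP assembly to 0.156 for the other RNA polymerase I genes.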

How the data were processed

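The labels describe strand-specific poly(A) libraries, read as 150 bp pairs, from cells lysed at 48 h, with an RNA integrity cutoff of 7.0. The submitters' processing notes name HISAT2, HTSeq, DESeq2 1.46.0, R 4.4.2 and GRCh38. The authors deposited one matrix of whole-number read counts per gene, not normalized. Which strand setting and annotation release served the counting is not given in the sources used here.

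Counts of 15 libraries (57128519 to 78548789 each) were filtered with filterByExpr, TMM-scaled and tested with edgeR 4.0.16 (quasi-likelihood, robust, R 4.3.3), with 5 group means and Benjamini-Hochberg adjustment over 18380 genes. SE is the log2 fold change over the square root of F. The common biological coefficient of variation was 0.344. The script was tested on simulated counts. Alternatives were DESeq2 1.42.0, other scalings and filters, length and GC offsets, a replicate block and each library left out. The re-scaled counts for related lists were added after seeing the data. The 46 genes and all lists were chosen with earlier results of these data known. Genes with values in every library are those with the largest called changes, the defining factors (UBTF, RRN3, FBL, NCL, NPM1) and those with the smallest p between transfected groups. NOP56 and DKC1 were added after their values were seen. In the lists, the 4 largest called changes are named, except where a gene is not reported here, and others (TBP, POLR1H and the shared subunits) were named after their values were seen. eGFP was not analysed here.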

Additional observations from a re-analysis of the deposited data

How the results depend on the processing

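Of the values of the named genes of the 46 recomputed under the alternatives, 515 kept their direction and side of the threshold, 17 passed it newly, 59 no longer passed and 7 changed sign; the cause was not tested. The 7 were FBL, NPM1 and BOP1 with total-count scaling (-0.0724, -0.162 and -0.157), FBL and BOP1 with length and GC offsets (-0.0070 and -0.118), and the same genes with offsets and replicate block (-0.0099 and -0.118). Among the other genes of the 46, offsets also turned the sign of DDX21 (0.26), GNL3 (0.06) and BMS1 (0.23).

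Counts of the 46 genes called, in the order all transfected, non-cloaked, weak-, medium- and strong-cloaked against untransfected cells, were 16, 3, 1, 9 and 12. With total-count scaling they were 27, 6, 3, 17 and 24 (28.9%, 6.01%, 3.75%, 16.5% and 19.3% of all genes). In non-cloaked and weak-cloaked cells they were 5 and 2 with a minimum of 50 counts in 3 libraries (10.6% and 5.68% of all genes). With the replicate block they were 5 and 5 (7.75% and 4.44%). In non-, weak- and medium-cloaked cells they were 0, 2 and 14 with the offsets (4.57%, 5.55% and 17.1%), 6, 4 and 17 with offsets and block (6.09%, 7.07% and 18.2%), and 12, 6 and 15 with DESeq2 (15.6%, 10.4% and 20.4%). Fitting only the compared groups gave 0 in weak-cloaked and 16 in medium-cloaked cells (0.023% and 20.6%). Leaving out 1 library gave 8 to 25, 0 to 2, 0 to 17, 5 to 11 and 1 to 10. The share of all genes called moved in such fits too, as given above for the pooled and the weak-cloaked comparisons. These ranges cannot be read as particular to the 46. Comparisons between transfected groups stayed at 0 calls in every edgeR setting run and in DESeq2.

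Over 30 same-numbered pairs of libraries from different groups, deviations from the group means correlated at -0.0635 to 0.174 (2 over 0.1). Over 60 differently numbered pairs they correlated at -0.137 to 0.113 (1 over 0.1). With 3 libraries a group, these values cannot decide whether the replicate numbers pair the libraries. With 3 libraries a group, a typical gene's 95% interval reached 0.349 on the log2 scale to either side over all transfected groups.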
